A study of Mus musculus with 54 samples.

Results

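The open chromatin at 55 cytoplasmic ribosomal protein genes of the mouse was described from 1 list of 113737 accessible regions (peaks). The genes were taken by name, 36 of the large ribosomal subunit (Rpl) and 19 of the small subunit (Rps), from the 21938 protein-coding genes of the GENCODE release M21 annotation on chromosomes 1 to 19, X and Y. Transcription starts (TSSs) were those of all annotated transcripts of a gene, and a peak centred no more than 1 kb from one of them was called a TSS peak of that gene. Peaks centred farther than 1 kb from all TSSs of all genes were called distal. All 55 genes had a TSS peak, 70 such peaks in all, and 352 distal peaks lay within 50 kb of their TSSs. The comparison genes were the other 21883 protein-coding genes, of which 15480 had a TSS peak.

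The list came from ATAC-seq, in which the transposase Tn5 inserts sequencing adapters into accessible DNA, of 54 samples in 24 groups of 2 or 3. All samples were the mouse embryonic stem (ES) cell line ZHBTc4, in which a Tet-Off promoter drives Pou5f1, the gene of the pluripotency factor OCT4, so that dox switches it off. The cells had been transduced with lentiviruses and sorted as a pool, and carried TIR1, the cell cycle reporter YPet-MD and mCherry-OCT4-AID, a tagged OCT4 made at a low constant level that auxin (IAA) removes. Every sample received dox, so untagged OCT4 was repressed in the controls too. In 22 samples cells were kept for 26 hr in dox, with 500 nM IAA for 2 hr or without it, and sorted into EG1, LG1, S and SG2 phases. In 16 samples IAA was given for 2.5 hr or not, then washed out for 4.5 hr before the same sort, with 31 hr of dox. The last 16 samples formed a time course with 34 hr of dox, untreated or with IAA for 0.5, 1, 2, 3, 4, 6 or 10 hr. The authors merged the peaks of all these samples into the list, so no value below belongs to 1 sample, phase or treatment, and the list gives no value per replicate to test. Differences are therefore given as medians and quartiles over genes, with no p-value, and genes are not replicates. As a check of the labelled cell type, all 8 ES cell marker genes examined had a TSS peak, Pou5f1, Sox2 and Nanog among them. The same was true of 3 of 6 fibroblast, 3 of 4 endoderm, 4 of 4 neural and 2 of 3 blood markers, so a TSS peak alone did not separate cell types here.

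Ribosomal proteins assemble with ribosomal RNA into the small and the large ribosomal subunit, and dividing cells need them in nearly equal amounts. Their genes are short and among the most strongly transcribed by RNA polymerase II. Many carry small nucleolar RNA (snoRNA) genes in their introns, and their mRNAs start with a run of pyrimidines, the TOP sequence, through which the mTOR pathway controls translation. Their promoters usually lack a TATA box and lie in CpG-rich DNA, where ETS-family factors, YY1 and SP1 are known to bind.

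A TSS peak was found at 55 of 55 listed genes (100%, Wilson 95% confidence interval 93.5 to 100%), against 70.7% of the other protein-coding genes. The intervals here cover counting error only. Among other genes under 10 kb, a size nearer to that of the listed genes, the share was 50.0%, and among other genes with at least 5 annotated transcripts it was 92.2%. Exactly 1 TSS peak was annotated at 44 of the 55 genes (80.0%), against 74.8% of the other genes with a TSS peak. Where a gene had several, the peak with the centre nearest to the reference TSS, the TSS of the principal coding transcript, was taken as its own.

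The own peaks were wider than those of most other genes. Their median width was 1595 bp (quartiles 1164 and 1857 bp, range 200 to 2869 bp, n = 55), against 1193 bp (quartiles 930 and 1460 bp) over the 15480 other genes. The widths of 32 of the 55 genes lay above the upper quartile of the other genes (58.2%, against 24.9% of the other genes by construction). Above the median of the other genes lay 38 of the 55 widths, and 40 lay above the median of the other genes of their own chromosome, over 18 chromosomes. Against other genes with a CpG-rich promoter the difference of medians was 315 bp, and against other genes under 10 kb it was 470 bp.

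The additional width lay downstream of the TSS, over the start of the gene. On the upstream side the peaks reached 466 bp from the TSS (median; quartiles 324 and 569 bp), against 493 bp in other genes. On the downstream side they reached 1048 bp (quartiles 813 and 1382 bp), against 678 bp (quartiles 473 and 922 bp). The downstream reach of 33 genes (60.0%) lay above the upper quartile of the other genes (25.0% by construction), and 48 of 55 lay above the median of their own chromosome. Consequently the peak centre sat a median of 322 bp downstream of the TSS (quartiles 191 and 436 bp), against 93 bp in other genes, and it lay downstream in 46 genes (83.6%, against 66.5%). With the transcript starts of RefSeq in place of those of GENCODE, available for 45 listed genes, the downstream reach was 967 bp against 655 bp. The upstream reach was then 519 bp against 512 bp, whereas the same genes with GENCODE starts gave 465 bp against 500 bp. Either difference was smaller than the spread over genes.

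**Figure D1:**
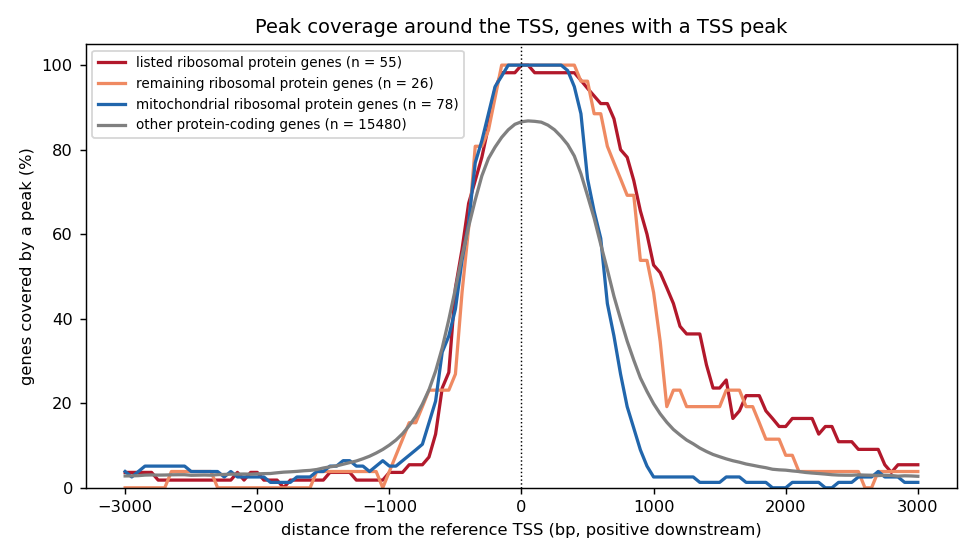
Share of genes (%) whose sequence at a given distance from the reference TSS (bp, positive downstream) lay in any peak, for the 55 listed ribosomal protein genes, 26 remaining ribosomal protein genes, 78 mitochondrial ribosomal protein genes and 15480 other protein-coding genes, all with a TSS peak. At 1000 bp downstream 52.7% of the listed genes were covered against 19.9% of the other genes, whereas at 500 bp upstream the shares were 47.3% and 47.1%, and at 700 bp upstream fewer listed genes were covered, 7.27% against 23.2%.

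The downstream edge of most peaks lay beyond the first intron. The first exon of the listed genes measured 86 bp and their first intron 387 bp (medians), against 228 and 3578 bp in other genes. The downstream edge lay past the first intron in 42 of the 55 genes (76.4%, interval 63.7 to 85.6%), against 14.5% of other genes and 29.2% of other genes under 10 kb. In 26 genes the edge fell in a later intron and in 15 in a later exon. The start codon lay inside the peak in 49 genes (89.1%, against 58.6%). The share was 89.7% in the mitochondrial ribosomal protein genes, 94.4% in ribosome biogenesis genes and 66.9% in other genes under 10 kb. Peaks of any kind covered a median of 36.1% of the gene body (quartiles 23.8 and 52.9%), against 5.97% in other genes, whose median length was 24425 bp against 3569 bp for the listed genes, and 17.0% in other genes under 10 kb.

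**Figure D2:**
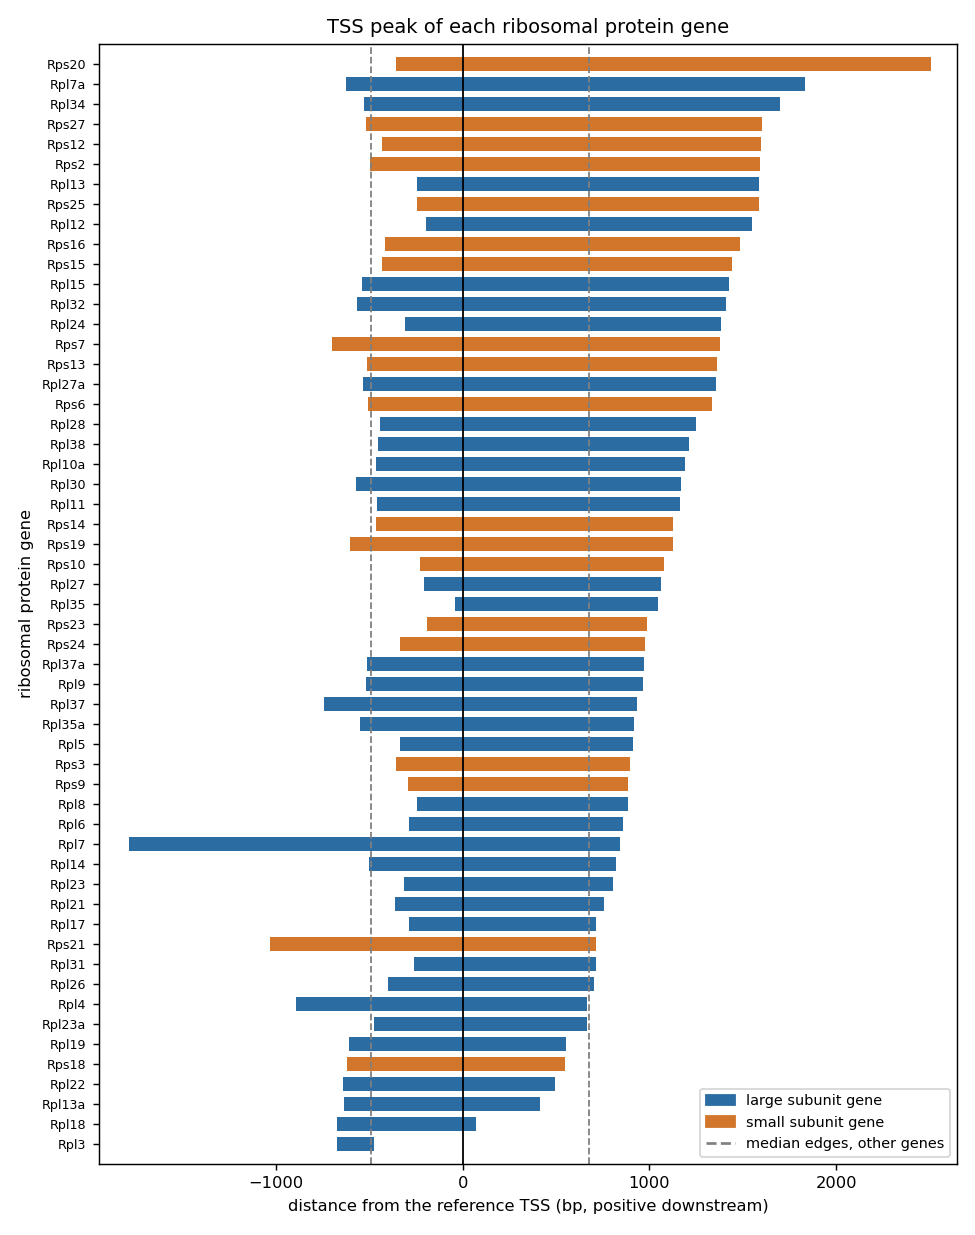
Own TSS peak of each of the 55 genes as a bar from its upstream to its downstream edge, in bp from the reference TSS (black line), sorted by the downstream edge. Blue bars are large subunit and orange bars small subunit genes, and the dashed lines mark the median edges of the other genes, 493 bp upstream and 678 bp downstream. Most bars end to the right of the downstream line, and the bar of Rpl3 does not reach the TSS.

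The widest own peak belonged to Rps20, a small subunit gene mutated in mice with dark skin, and spanned 2869 bp (chr4:3833155-3836023, GRCm38, all coordinates 1-based). Its centre lay 1076 bp downstream of the TSS, the farthest of all, and it overlapped all 4 exons of the reference transcript. Rpl7 followed with 2629 bp (chr1:16103820-16106448), but its peak reached 1786 bp upstream and 842 bp downstream, and also held a TSS of Rdh10, a retinol dehydrogenase gene on the opposite strand 1112 bp away. The peak of Rpl7a spanned 2461 bp (chr2:26910137-26912597) and covered 5 of its 8 exons, and that of Rpl34 spanned 2230 bp (chr3:130728698-130730927). Rps27, one of the shortest listed genes with 1130 bp, lay inside its own peak of 2120 bp from end to end (chr3:90212049-90214168). The centres of Rpl12 and Rpl13 lay 677 and 672 bp downstream, next after Rps20, and that of Rps25 at 671 bp.

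The narrowest own peaks were those of Rpl3 with 200 bp, Rpl18 with 742 bp, Rpl31 with 971 bp and Rpl17 with 1003 bp. The value of Rpl3, which encodes a protein near the peptidyl transferase centre, rested on the rule of the nearest centre. Its reference TSS lay outside this small peak (chr15:80083879-80084078, on the upstream side), the only such case among the 55 genes. The reference TSS lay inside in 54 (98.2%), against 86.4% of other genes and 97.6% of other genes with a CpG-rich promoter. A second TSS peak of Rpl3, 2809 bp wide (chr15:80081035-80083843), did contain the reference TSS of Rpl3, and another one was centred at -7934 bp, at an alternative start upstream. Rpl18 and Rpl31 also had 3 TSS peaks each. The peak of Rpl18 (chr7:45714786-45715527) ended 70 bp downstream of the reference TSS, and a second peak of 1014 bp was centred 2765 bp downstream, near the RefSeq start, which lay 2614 bp downstream of the GENCODE reference. At Rpl31, peaks of 249, 971 and 1203 bp were centred at -425, 227 and 2106 bp from the TSS. The centres farthest upstream were those of Rpl3, Rpl7 and Rpl18, at -572, -472 and -301 bp.

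The other genes with several TSS peaks were Rps14 with 3, and Rpl13a, Rpl21, Rps18, Rps9, Rps24, Rpl24 and Rpl7a with 2 each. In Rpl21, Rps9 and Rps18 the second peak measured 1359, 1321 and 1084 bp and was centred 2028, 2156 and 4072 bp downstream of the reference TSS. The second peak was small in Rpl7a, Rpl24, Rpl13a and Rps24, with 217, 243, 343 and 471 bp. Rps14 had its additional peaks, of 255 and 514 bp, more than 26 kb upstream at an alternative start. Rps9 is of interest because the study used its mRNA as the reference in RT-qPCR. Its own peak spanned 1179 bp (chr7:3703703-3704881), near the median of other genes, with its edges 290 bp upstream and 888 bp downstream, and 3 distal peaks lay within 50 kb of its TSSs.

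The peaks of the small subunit genes were wider at the median than those of the large subunit genes. Their median width was 1833 bp (quartiles 1311 and 1966 bp, n = 19) against 1476 bp (quartiles 1128 and 1705 bp, n = 36). The upstream reach was similar, 432 and 487 bp, and the downstream reach was 1333 bp against 927 bp. The quartile ranges of the downstream reach overlapped, 984 to 1535 bp and 714 to 1224 bp, and both medians lay above that of other genes. The 14 listed genes linked to Diamond-Blackfan anemia, an inherited failure of red cell production in people with ribosomal protein mutations, had a median width of 1311 bp against 1667 bp for the other 41. Their downstream reach was nevertheless 1055 bp against 989 bp. Above the median of other genes lay 47 of all 55 listed genes (85.5%) and all but 1 of these 14. The exception was Rpl18.

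Among the genes with known roles beyond the ribosome, Rpl5 and Rpl11 encode the proteins that bind 5S RNA and, when ribosome assembly fails, the p53 regulator MDM2. The peak of Rpl11 spanned 1624 bp (chr4:136052229-136053852) and reached 1164 bp downstream, and that of Rpl5 spanned 1247 bp and reached 911 bp. Rpl38, needed for the translation of Hox mRNAs in the embryo, had a peak of 1667 bp (chr11:114668072-114669738). Rpl24, mutated in Belly spot and tail mice, had one of 1693 bp. Rps6, whose protein is the classical substrate of S6 kinase, had a peak of 1840 bp (chr4:86856079-86857918), and Rps19, the gene most often mutated in Diamond-Blackfan anemia, one of 1729 bp. All 6 downstream edges lay above the median of other genes, between 911 bp in Rpl5 and 1384 bp in Rpl24. The same held for 47 of all 55 listed genes (85.5%). Rpl22, a protein dispensable in most cells, was different, with a peak of 1134 bp that was centred at -73 bp from the TSS and reached 494 bp downstream.

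In 13 of the 55 genes (23.6%, interval 14.4 to 36.3%, against 16.5% of other genes) the own peak also held a TSS of another protein-coding gene. The interval held the share of other genes, and the share was 21% in other genes under 10 kb and 39.7% in the mitochondrial ribosomal protein genes. In 12 of the 13 genes the partner ran on the opposite strand. The exception was Rps10, whose partner was the readthrough transcript RPS10-NUDT3 on the same strand. The distance between opposite starts had a median of 111 bp. It was 33 bp for Rpl12 and Lrsam1 and for Rps25 and Trappc4, and 44 bp for Rps27 and Rab13. The distances were 53 bp for Rpl9 and Lias, 69 bp for Rpl15 and Nkiras1, 87 bp for Rpl7a and Med22, and 135 bp for Rps18 and Vps52. They were larger for Rpl35a and Iqcg (235 bp), Rpl18 and Sphk2 (250 bp), Rpl4 and Zwilch (271 bp), Rpl35 and Arpc5l (276 bp), and Rpl7 and Rdh10. A peak at such a pair cannot be assigned to 1 of its genes. Without these 13 genes the median width was 1610 bp and the downstream reach 1026 bp, so the longer reach was present in the unpaired genes too.

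SnoRNA genes, which guide modifications of ribosomal RNA, lay in the body of 22 listed genes (40.0%, against 2.45% of other genes). Of the 26 remaining cytoplasmic ribosomal protein genes, 9 had one (34.6%). The 22 listed genes held 45 snoRNA genes, of which 16, in 13 host genes, lay wholly inside the own TSS peak of the host and 20 inside any peak. The peak of Rps12 covered Snord100, the peak of Rpl32 covered Snora7a and the peak of Rpl13 covered Snord68. All 5 snoRNA genes of Rpl4, from 1706 to 3783 bp downstream of its TSS, lay outside any peak. The width was 1711 bp with and 1488 bp without a snoRNA gene, and the downstream reach 1054 and 1048 bp (medians).

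To show the DNA at the start of these peaks, the 170 bases from 150 before the TSS to 20 from it are printed for Rps9 and for 4 genes with a peak width and centre close to the medians of the list. Rps14 was closer to both medians than these 4 and its sequence is not shown. The sequences were read from the RefSeq assembly GRCm38.p6, run 5′ to 3′ on the transcribed strand, and carry in capitals the motif letters and pyrimidine runs described in the next paragraphs. They come from chr17:28328418-28328587 (Rpl10a, + strand), chr4:136053374-136053543 (Rpl11, - strand), chr15:34443621-34443790 (Rpl30, - strand), chr11:114668374-114668543 (Rpl38, + strand) and chr7:3703843-3704012 (Rps9, + strand).
Rpl10a: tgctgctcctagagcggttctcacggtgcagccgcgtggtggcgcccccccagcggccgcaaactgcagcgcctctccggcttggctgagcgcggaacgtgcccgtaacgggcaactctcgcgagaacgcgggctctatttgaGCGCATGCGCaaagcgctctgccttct
Rpl11: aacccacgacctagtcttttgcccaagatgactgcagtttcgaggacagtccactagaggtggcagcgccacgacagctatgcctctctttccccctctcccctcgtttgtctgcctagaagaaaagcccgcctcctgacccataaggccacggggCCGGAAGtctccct
Rpl30: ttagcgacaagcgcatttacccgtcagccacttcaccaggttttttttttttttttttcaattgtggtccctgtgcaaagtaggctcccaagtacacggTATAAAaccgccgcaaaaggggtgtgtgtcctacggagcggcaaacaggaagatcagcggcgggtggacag
Rpl38: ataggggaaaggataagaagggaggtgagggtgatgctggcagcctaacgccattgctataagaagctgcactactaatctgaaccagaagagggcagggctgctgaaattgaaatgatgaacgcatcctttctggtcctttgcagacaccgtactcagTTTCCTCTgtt
Rps9: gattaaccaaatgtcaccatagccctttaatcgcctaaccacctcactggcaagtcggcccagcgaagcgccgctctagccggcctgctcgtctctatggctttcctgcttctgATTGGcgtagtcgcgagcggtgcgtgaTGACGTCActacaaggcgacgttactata
In these 5 promoters the capitals mark overlapping NRF1 letters of both strands at the TSS of Rpl10a and ETS letters in Rpl11. They also mark TATA letters from -51 to -46 bp in Rpl30, a pyrimidine run in Rpl38, and CCAAT and CRE letters in Rps9.

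Short consensus letters were searched on both strands from 250 bp before to 50 bp after the TSS. ETS letters (CCGGAAG) were found in 17 of the 55 promoters (30.9%, interval 20.3 to 44.0%), against 15.0% of other genes with a TSS peak and 11.2% of all protein-coding promoters. Among other genes with a CpG-rich promoter the share was 19.8%, just below that interval. The 17 genes were Rpl6, Rpl8, Rpl11, Rpl15, Rpl26, Rpl27a, Rpl31, Rpl32, Rpl37, Rpl38, Rps2, Rps6, Rps7, Rps10, Rps14, Rps18 and Rps21. The matches began at a median of -27 bp from the TSS. The peak width was 1667 bp in these genes and 1487 bp in the 38 without a match. YY1 letters (AGATGGC) occurred in 7 promoters (12.7%, interval 6.30 to 24.0%, against 6.56%, which the interval includes), those of Rpl6, Rpl18, Rpl23a, Rpl32, Rpl35a, Rps25 and Rps27.

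For each of the remaining motifs the interval of the share in the promoter window held the share of the other genes. NRF1 letters (CATGCGC) were in 6 promoters (10.9%, against 6.09%) and CRE letters (TGACGTC) in 5 (9.09%, against 5.10%). The MYC E-box (CACGTG) was in 7 (12.7%, against 9.52%), a difference that changed sign in the window from 100 bp before to 50 bp after the TSS. TATA letters (TATAAA) were in 5 (9.09%, against 7.71%), and only in Rpl30 did they lie on the transcribed strand upstream of the TSS. SP1 letters (GGGCGG) were in 27 (49.1%, interval 36.4 to 61.9%, against 61.1%), and with listed and other genes both restricted to CpG-rich promoters in 56.1%, against 77.1%. The CCAAT box (CCAAT) was in 15 (27.3%, against 37.4%). The octamer letters of OCT factors (TTTGCAT) were in 3 promoters (5.45%, against 3.60%), those of Rpl18, Rpl24 and Rps3. Anywhere in the own peak they were found in 11 genes (20%, interval 11.6 to 32.4%, against 11.3%), a count that is not on equal length because the own peaks were wider than those of other genes. By composition 41 promoters were CpG-rich (74.5%, against 61.4%), although the median GC content over all listed promoters was lower, 55.7% against 60.3%. Over all protein-coding promoters the letters of YY1, NRF1, CRE, the E-box, TATA, SP1, CCAAT and OCT were present in 5.99, 4.97, 4.11, 7.72, 12.6, 45.4, 38.6 and 4.25%.

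**Figure D3:**
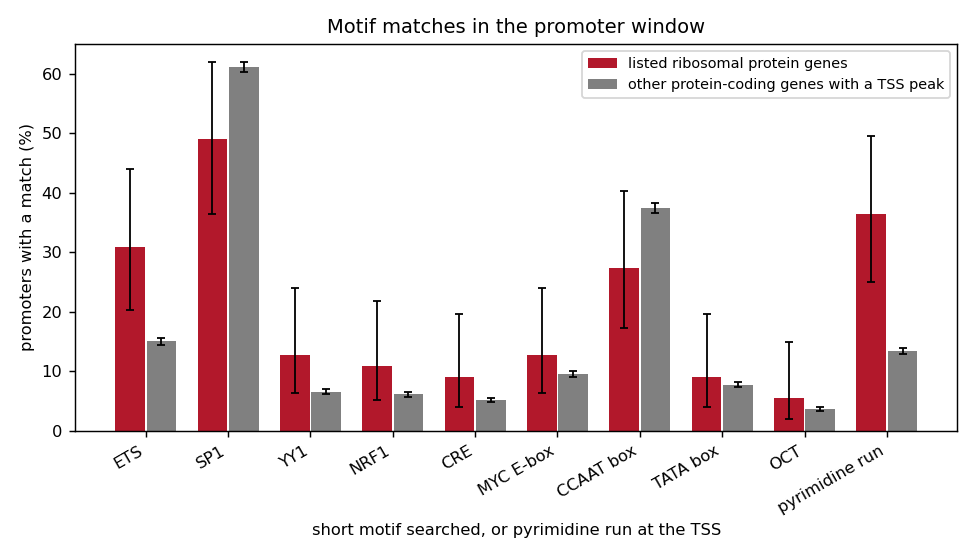
Share of promoters (%) that held each set of letters, or a pyrimidine run at the TSS, in the 55 listed genes (red) and in the 15480 other protein-coding genes with a TSS peak (grey). Error bars are Wilson 95% intervals. The ETS and pyrimidine run bars of the listed genes, 30.9 and 36.4%, stand above the grey bars by more than their intervals.

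The pyrimidine run of TOP mRNAs was searched as at least 8 consecutive C or T overlapping the 21 bases centred on the TSS. It was present in 20 of 55 genes (36.4%, interval 24.9 to 49.6%), against 13.3% of other genes and 13.5% of all protein-coding promoters. Some of these runs ended before the TSS, as in Rpl13 and Rpl34, and are then not part of the annotated mRNA. A run of at least 6 pyrimidines that covered the TSS itself was present in 18.2% of the listed genes, against 6.89% of other genes. The first base of the mRNA was a C in 21 genes (38.2%, against 17.5%). The starts are those of the annotation and were not measured, and they differed between sources: 20 of the 45 genes in the RefSeq table (44.4%) had a RefSeq start within 20 bp of the GENCODE reference, against 57.8% of other genes. At the RefSeq starts the run was found in 21 of 45 genes (46.7%, against 13.4% of other genes). This share and that of the 55 genes are not over the same set. Runs were also lost: Rpl37 and Rps24, for example, had one at the GENCODE reference but none at the RefSeq start. To show how such runs look, the 21 bases around the start, on the transcribed strand with the run in capitals, are printed for 4 genes at the GENCODE reference and, marked RefSeq, for 4 genes where only the RefSeq start showed it. The former lie at chr6:115808737-115808757 (Rpl32, - strand), chr15:5116635-5116655 (Rpl37, + strand), chr14:24490708-24490728 (Rps24, + strand) and chr9:64173365-64173385 (Rpl4, + strand), and the latter at chr9:120571507-120571527 (Rpl14, + strand), chr2:26910797-26910817 (Rpl7a, + strand), chr4:86857357-86857377 (Rps6, - strand) and chr7:3704031-3704051 (Rps9, + strand), all on GRCm38.
Rpl32: gccgccgCCTCTTCCTTCTTC
Rpl37: ggggtgCTTTCTCTTCCggtc
Rps24: gtgagcggTCCTCTTTTCCTC
Rpl4: caagTCTTTCCTTTTCCTgtg
Rpl14 (RefSeq): ggCCCTCTCTCTTCTCgctga
Rpl7a (RefSeq): CTCTTCTTTCTTTCTCCagca
Rps6 (RefSeq): gaagtcgggCCTCTTTTTCgt
Rps9 (RefSeq): cttgTCTCTCTTTgtctcggg
In Rps6 and Rps9 the RefSeq start lay 45 and 48 bp downstream of the GENCODE reference, inside the own peak. The 20 genes with a run at the GENCODE reference had a median peak width of 1525 bp and the 35 without it 1655 bp.

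The number of distal peaks near the listed genes was close to that of other genes. Within 50 kb lay a median of 6 distal peaks (quartiles 4 and 9, range 1 to 16), against 5 (quartiles 3 and 8). Per 100 kb of sequence more than 1 kb from any TSS, the density was 6.82 against 5.32. This difference was smaller than the spread over genes, and the listed genes also had more coding neighbours, a median of 2 within 50 kb against 1. None of the 55 genes lacked a distal peak (0%, upper bound of the interval 6.53%), against 3.98% of other genes. By chromosome, 27 of the 55 genes lay above the median of the other genes, 9 at it and 19 below it. The nearest distal peak was centred 7364 bp from the TSS (median), against 9805 bp, and lay within 5 kb in 11 genes, against 21% of other genes.

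**Figure D4:**
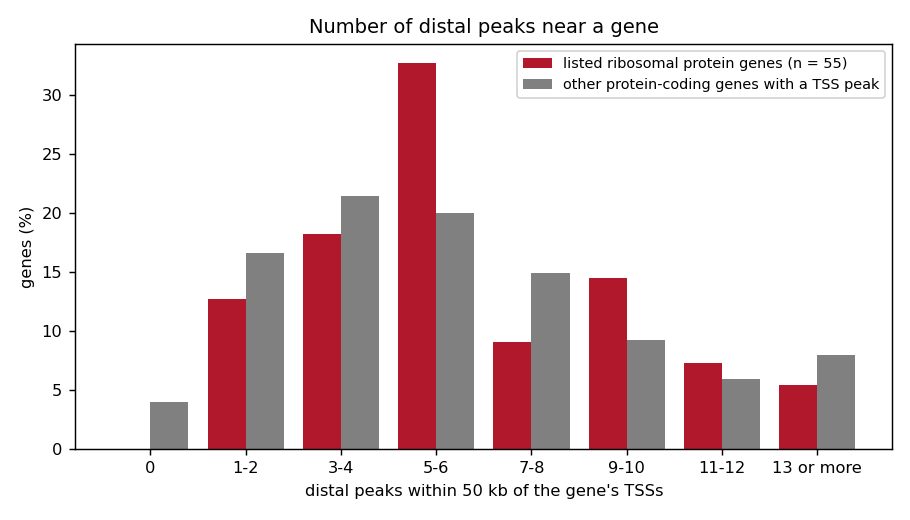
Share of genes (%) by how many distal peaks lay up to 50 kb from their TSSs, for the 55 listed genes (red) and the other protein-coding genes with a TSS peak (grey). The distributions overlap, the tallest bar of the listed genes stands at 5 to 6 peaks (32.7%), and 3 genes had 13 or more.

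Rps6 had the most distal peaks, 16 within 50 kb, of which 1 lay in its own gene body. Rpl38 followed with 14 and Rps14 with 13, and Rpl3, Rpl37 and Rps21 shared the next place with 12. At the other end, Rpl27 and Rpl7a had 1 distal peak each, 37282 and 39289 bp away, and both had 7 coding genes with a TSS within 50 kb. The 352 distal peaks were all different, none lying near 2 of the listed genes. Their median width was 466 bp, against 380 bp for all 89795 distal peaks, and their GC content 51.0% against 47.7%. Of the 352 peaks, 11 (3.12%) were centred in the body of the listed gene, 203 (57.7%) in another gene and 138 (39.2%) between genes. This split is not given here for all distal peaks, so it cannot be read as particular to the listed genes. Octamer letters were found in 26 of the 352 peaks (7.39%), against 9.44% of all distal peaks.

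The same measures placed the listed genes beside related genes. The 26 remaining cytoplasmic ribosomal protein genes, among them Rplp0, Rpsa and Rack1, all had a TSS peak, with a median width of 1432 bp and a downstream reach of 975 bp. A list of 14 other genes with TOP mRNAs, mostly translation factors such as Eef1a1 and Eef2 but also Naca, Nap1l1, Tpt1 and the nucleolar chaperone gene Npm1, had a reach of 985 bp, and all had a TSS peak. A pyrimidine run was found in 8 of the 26 and in 7 of the 14. The 78 mitochondrial ribosomal protein genes, whose products work in a separate ribosome inside mitochondria, also had a TSS peak without exception. Their median width was 1125 bp and their downstream reach 633 bp (quartiles 484 and 751 bp), below the lower quartile of the listed genes and near the value of all other genes. ETS letters were in 29 of the 78 (37.2%) and the pyrimidine run was in 9 (11.5%). The 18 ribosome biogenesis genes, such as Ncl and Fbl, had a width of 1135 bp and a downstream reach of 622 bp. Transcript levels were not analysed here. Of 6 ribosomal protein paralogs, Rpl3l and Rpl39l had no TSS peak, and Rpl7l1, Rpl10l, Rpl22l1 and Rps27l had one of 1129 to 1632 bp.

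**Figure D5:**
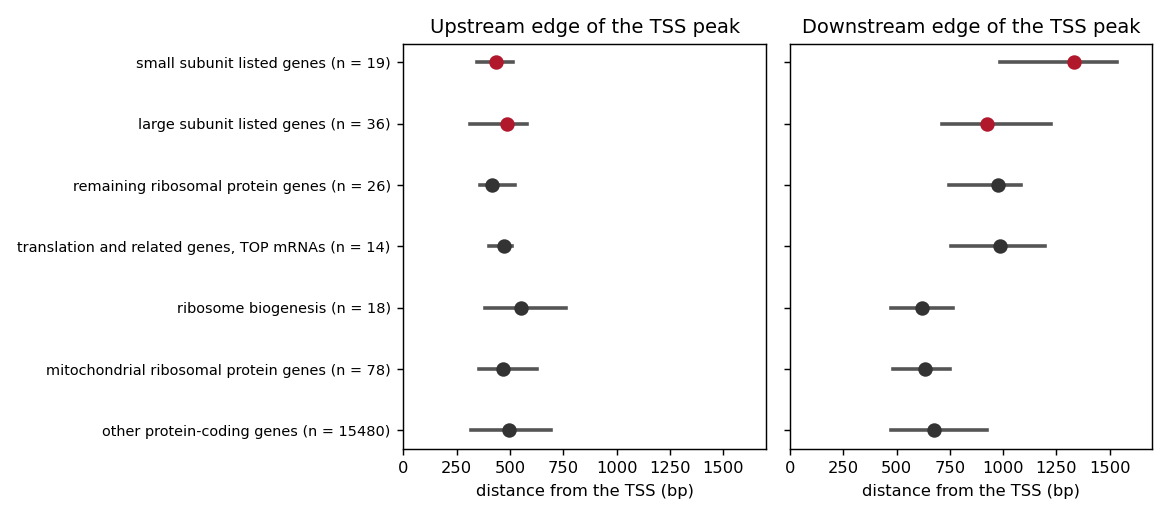
Distance (bp) of the upstream (left) and downstream (right) edge of the own TSS peak from the TSS, as the median (point) and quartiles (bar) over the genes of each list. The upstream points lie between 416 and 553 bp in all lists, while the downstream points of the 4 upper lists lie between 927 and 1333 bp and those of the 3 lower lists between 622 and 678 bp.

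Processed pseudogenes, copies of mRNAs inserted elsewhere in the genome, are numerous for ribosomal proteins and lack the promoter of their parent. Of 294 annotated pseudogenes named for a ribosomal protein, 33 had a TSS peak (11.2%, interval 8.10 to 15.3%), against 10.0% of 13229 other pseudogenes. Only names that begin with Rpl or Rps and carry -ps were taken. Any ribosomal protein copy named otherwise therefore counted among the other pseudogenes. More than 2 kb from any coding TSS the shares were 10.6 and 9.53%. When a peak had to overlap the pseudogene itself, the shares were 6.80 and 8.72%, so the small difference changed its sign. A processed pseudogene can share much of its sequence with the mRNA of its parent. How reads that fit several places were treated is not given in the sources used here, so a peak on a copy is uncertain.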

How the data were processed

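The deposited list gives positions in bp (unit: other) of merged regions, with no count, score or signal. According to the study's methods and the labels' processing notes, the authors aligned reads to GRCm38 with STAR 2.6.1c, removed duplicates with Picard, called peaks with MACS2 2.1.1.20160309 and merged them with bedtools; whether peaks were called per library or on pooled libraries is not given in the sources used here. The list still held 11 regions above 5 kb. Depth is unknown, and a merged list widens with depth and number of libraries. No column of sample values was left unused (0).

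Peaks were compared with GENCODE M21 and the sequence of GRCm38.p6 in Python 3.11.15 (numpy 2.4.6, pandas 2.3.3, scipy 1.17.1, matplotlib 3.10.9), with scripts tested on simulated data. The members, lists and motifs were chosen with earlier results of these data known. Most genes were named by a rule: the 4 widest and 4 narrowest own peaks, the 3 centres farthest upstream and downstream, a TSS outside the own peak, most and fewest distal peaks, several TSS peaks, a partner TSS, Rps9, and members known for roles in disease or beyond the ribosome. The centre of Rps25 and the genes shown for snoRNA genes and pyrimidine runs were examples outside that rule. CpG-rich means an observed to expected CpG ratio of at least 0.6 and a GC content of at least 50%. Nothing was tested, because the merged list used here holds no values per sample.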

Additional observations from a re-analysis of the deposited data

How the results depend on the processing

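Each difference between listed and other genes (medians, or shares in percentage points) was recomputed under alternatives, 111 values over 20 results. A value counted as moved when it changed by more than the 95% interval of the listed genes' value. Width differences stayed between 283 and 640 bp, centre differences between 172 and 321 bp and downstream reach differences between 249 and 656 bp. With small subunit genes alone the centre difference was 321 bp and the reach difference 656 bp, beyond those intervals. The TSS peak share exceeded that of other genes by 50.0 points when these were under 10 kb and by 7.83 points when they had at least 5 transcripts. The share with the TSS inside the peak differed by 0.61 points from genes with CpG-rich promoters. Against the same genes the SP1 share of all listed genes differed by -28.0 points, and that of the listed genes with CpG-rich promoters by -21.0 points. Windows of 100 and 20 kb changed the distal peak difference to 3 peaks and the difference in genes without a distal peak to -11.0 points. The sign changed for 3 differences: the upstream reach with RefSeq starts (7 bp, against -35 bp with GENCODE starts in the same genes), the E-box share in the shorter window (-0.527 points) and the pseudogene share by body overlap (-1.92 points). The cause was not tested. RefSeq starts, genes with 1 TSS peak or an inside TSS, the comparison groups for downstream reach, and the restriction to genes of the RefSeq table or of both groups to CpG-rich promoters were chosen after seeing the data. No paired analysis was possible because no column belongs to a sample. The list has no depth or signal, so accessibility levels and treatment effects could not be measured.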
